A study of Mus musculus with 6 samples.

Results

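The DNA replication machinery, the set of proteins that copies the genome once in each cell cycle, was described in whole mouse embryos from diabetic and control pregnancies through 48 genes. Members were chosen by function: every probe set that the platform's table assigned to exactly 1 symbol, and that symbol to 1 of the 48, was taken, which gave 107 of the 45101 probe sets on the array and 48 of the 13956 genes tested. The genes fell into 5 groups by role, with 9 genes of origin licensing, 12 of the helicase, 12 of the DNA polymerases, 11 of the clamp, its loader and strand joining, and 4 of nucleotide supply. All 48 genes had at least 1 probe set above the filter on dim signals, and 96 of the 107 probe sets were tested. The other 11 probe sets were too dim.

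FVB inbred embryos were taken at embryonic day 10.5 (E10.5). Dams of the diabetes-exposed embryos had received 2 injections of 100 mg streptozotocin per kg body weight, which kills pancreatic beta cells. Only dams with a blood glucose above 250 mg per dl were used. Control embryos came from control pregnancies whose dams' injections, if any, the labels do not describe. RNA of 3 embryos, each from another pregnancy, was combined in equal amounts into 1 pool, with 3 control pools and 3 diabetes-exposed pools, and each pool was read on 1 Affymetrix Mouse 430 2.0 array. The p-values below therefore measure the spread between pools of 3 embryos, not between embryos. In pools of whole embryos, a change in the share of cycling cells and a change in RNA per cell, up or down, cannot be told apart.

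Replication starts from origins that are licensed in G1 phase, when the origin recognition complex (ORC) with Cdc6 and Cdt1 loads the ring of Mcm2 to Mcm7, and geminin blocks Cdt1 afterwards. In S phase Cdc45 and the GINS complex join the ring to form the active helicase, primase with polymerase alpha lays down primers, and polymerases delta and epsilon extend the lagging and leading strands on the sliding clamp PCNA, while replication protein A (RPA) covers single-stranded DNA. The embryo at midgestation consists largely of dividing cells, and many of these genes are textbook targets of E2F transcription factors.

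The arrays themselves were not alike. Poly-A spikes, bacterial RNAs put in before labelling, had a 3' to middle signal ratio of 2.10, 2.07 and 2.52 on control arrays and of 6.56, 3.47 and 7.00 on exposed ones (two-sided exact permutation p = 0.1, the smallest that 3 against 3 pools allow). The 3' to 5' ratio of beta-actin was 1.71 to 2.19 against 3.09 to 10.3, with diabetes-exposed pool 2 again closest to the controls. Summed signals of 10 cardiomyocyte markers ranged from 23264 to 28190 in control and from 43363 to 47113 in exposed pools, and 9 of the 10 rose. Those of 10 neural progenitor markers ranged from 34093 to 34921 and from 30064 to 30938, with 6 of 10 lower and 1 higher. Vim alone, not called and at means of 17025 and 16789, made up much of the progenitor sum. A list of placenta and decidua markers had 7 genes on the array, with a summed signal of 6253 to 7089 against 1047 to 1528. Of these, Tpbpa, Ctsq, Psg18, Psg19 and Dcpp1 were under 100 in each pool. The drop in the sum was that of Prl8a2, a prolactin-family hormone gene of the decidua, from a mean of 6211 to 36.3. Cryab, the only other listed gene tested, rose 2.38-fold, with signals of 1174, 956 and 1455 in exposed pools. Cryab thus made up most of the sum left there, and whether its signal came from placenta or decidua was not tested. The summed signal of 10 macrophage markers was 1302 to 1406 against 1594 to 1886, with Cx3cr1, Fcgr1 and C1qa under 100, and 2 of the 10 rose and 0 fell. Neuron markers summed to between 15421 and 17301 in control pools and to between 13757 and 15564 in exposed pools. These sums overlapped, but of the 10 neuron markers 4 fell and 2 rose. The 9 erythroid markers on the array summed to between 80053 and 87176 and to between 76847 and 94537, with Hba-a1 under 100. Of the 8 tested, 1 fell and 0 rose. Over all genes tested 17.6% rose and 19.9% fell. The part of these differences in the values of the replication genes was not tested.

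Pole4, a small histone-fold subunit of polymerase epsilon, is given first because the study divided its quantitative PCR values by Pole4 measured in the same sample. The PCR primers that defined that reference, as listed by the study, were
Pole4 forward: cgggacaggaagccatctt
Pole4 reverse: agcagtaggcatcttttgcgata
On the arrays the Pole4 signal read 1000, 687 and 965 for control and 922, 902 and 873 for exposed pools. The lowest and the highest of the 6 values both came from control pools, and the exposed pools lay between them. The log2 fold change, exposed over control, was 0.04 ± 0.15 (SE; adjusted p = 0.847), and a second Pole4 probe set gave 0.06 ± 0.11 (adjusted p = 0.693). At the first, 1 control pool set the spread: the standard deviation was 171 in the control and 24.8 in the exposed pools. Without control pool 2 the log2 fold change of the first was -0.13. A change of Pole4 within these errors was not detectable.

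In the signals as deposited, more replication genes rose than fell, while under 2 of 4 other scalings of the arrays their median was no higher than that of all genes. Read at its brightest tested probe set, 17 of the 48 genes rose, 4 fell and 27 passed neither test (limma, adjusted p under 0.05 over all probe sets). Of all 13956 genes tested, 17.6% rose and 19.9% fell. Among the replication genes the shares were 35.4% and 8.33%. Groups did not overlap for 27 of the 48 genes (56.2%), against 52.3% of all genes, which is close to the background. The median log2 fold change of the 48 genes was 0.17, with a range of -0.77 to 0.98, while the median of all genes was -0.00025, and 33 of the 48 lay above 0. The changes were small, and no gene changed 2-fold at its brightest probe set. In the single pools, the median deviation of the 48 genes from their control means was -0.05, -0.05 and 0.08 in the controls and 0.16, 0.21 and 0.17 in the exposed pools on the log2 scale. The 3 exposed pools lay above each control pool. After median centring of the arrays 24 of the 48 genes rose (50%, against 29.1% of all genes) and 0 fell (8.73% of all genes). After quantile normalization 12 rose (25%, against 24.1%) and 6 of the 48 fell (15.4% of all genes), and the median of the 48 genes, 0.10, was below the 0.14 of all genes. The counts were the same after cyclic loess normalization, where 20.3% of all genes rose and 17% fell, and the medians were 0.078 and 0.081. Relative to Pole4 5 rose and 2 fell (5.15% and 12.8% of all genes). Of the 17 rises, 9 held whichever pool was left out, and 5 of these also held under the 4 other scalings: Orc5, Orc6, Gmnn, Prim2 and Rpa3. Without both exposed pools 1 and 3, which leaves 1 exposed pool, their log2 fold changes were 0.52, 0.62, 0.45, 0.37 and 0.68 in that order. Prim2 was then read at its second probe set, and its value had been 0.98 with all pools. Orc5, Orc6, Gmnn and Rpa3 had only 1 probe set each, so that no other probe set could differ from it. Of the 4 falls, those of Mcm2 and Pold1 held whichever pool was left out, and neither held under all 4 scalings. The other calls ended in fits without single pools, with adjusted p between 0.0503 and 0.158 in limma. For Orc2, Cdt1, Mcm7, Prim1 and Fen1 these were the fits without control pool 1 or 2 or exposed pool 1 or 3, and for Rrm2 also that without control pool 3. The call of Pcna ended without control pool 1 or 2 or exposed pool 1, that of Rpa2 without control pool 1 or 2 or exposed pool 3, that of Lig1 without control pool 2 or 3 or exposed pool 3, and that of Pole without control pool 1. After median centring, 1 of the 48 genes was lower at an unadjusted p under 0.05 in limma.

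**Figure D1:**
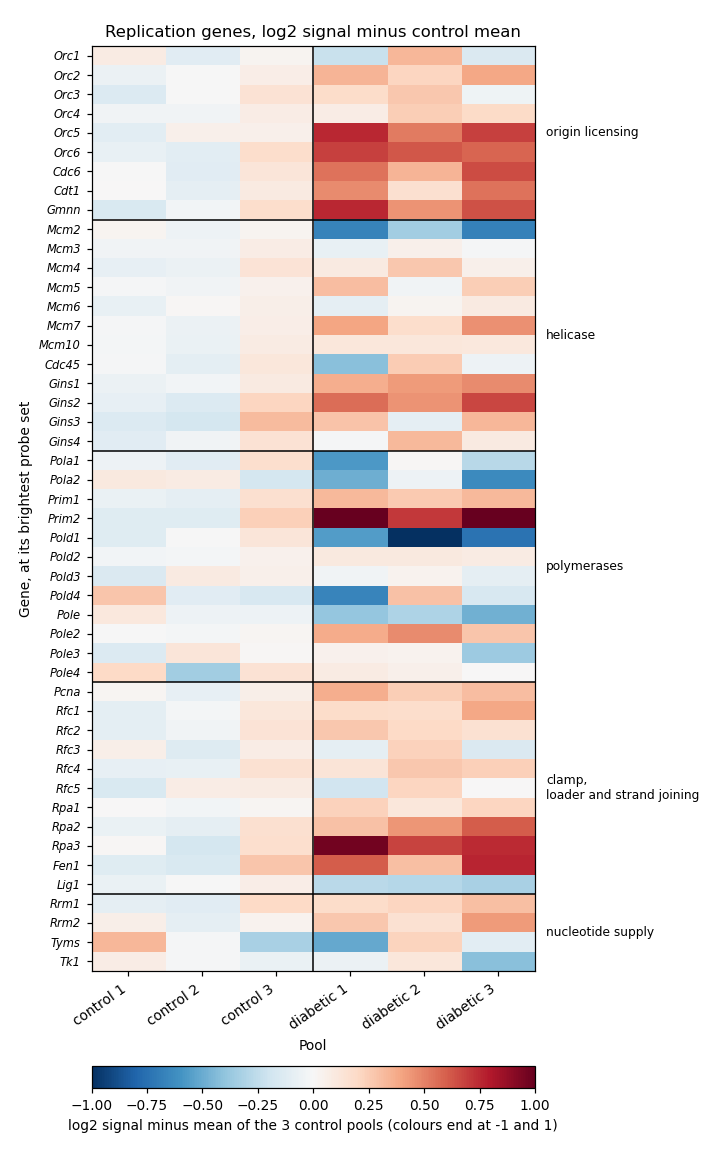
Log2 signal of each of 48 replication genes at its brightest probe set (rows, by role) in each of 6 pools (columns), minus the mean of the 3 control pools; red is higher and blue is lower, and colours end at -1 and 1. Licensing genes from Orc5 to Gmnn were higher in the 3 diabetes-exposed pools, and Mcm2, Pold1, Pole and Lig1 were lower.

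**Figure D2:**
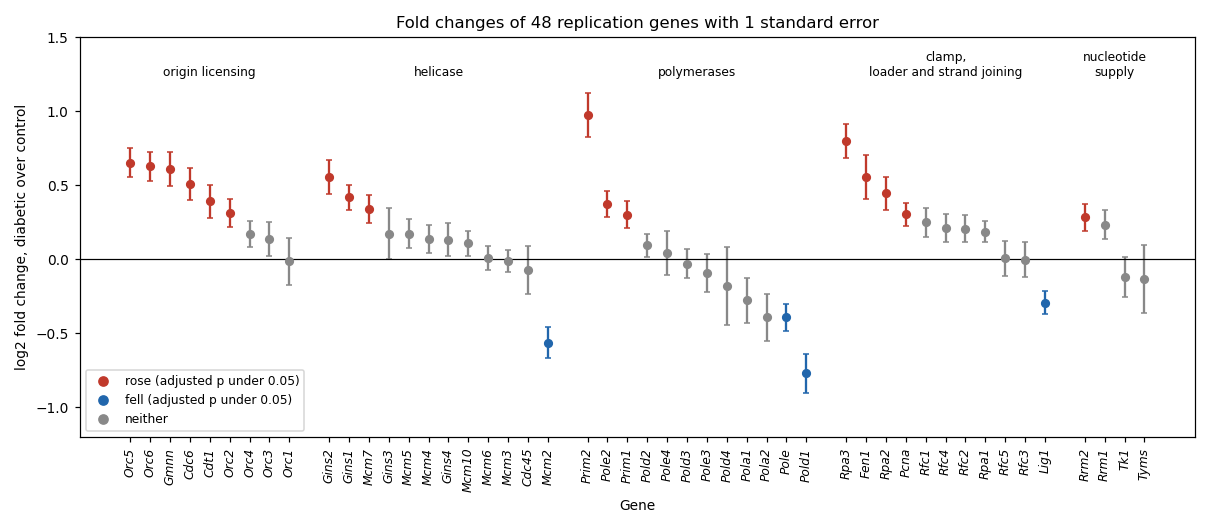
Log2 fold change, diabetes-exposed over control, of the 48 genes (points) with 1 standard error (bars), ordered within each role; red genes rose, blue genes fell and grey genes passed neither test at an adjusted p under 0.05. Prim2 at 0.98 and Pold1 at -0.77 were the ends of the range.

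Origin licensing held the highest median, 0.39, with 6 of 9 genes higher and 0 lower, beside 17.6% and 19.9% of all genes. After median centring, quantile and loess normalization and relative to Pole4 its median was 0.69, 0.39, 0.36 and 0.35, beside 0.30, 0.14, 0.08 and -0.04 for all genes. Orc5, a subunit of the origin recognition complex, had signals of 1396, 1560 and 1559 in control pools and 2532, 2159 and 2409 in exposed pools. The groups were separated by a wide gap, and the log2 fold change was 0.65 ± 0.097 (adjusted p = 0.00168). Orc6, the smallest subunit of that complex, stood at 1641, 1610 and 1952 in controls and at 2772, 2651 and 2589 in exposed pools. Here the 3 exposed pools lay close together, and the log2 fold change was 0.63 ± 0.098 (adjusted p = 0.00208). Gmnn encodes geminin, the inhibitor that keeps Cdt1 from loading helicases again within a cycle. Its signals were 3754, 4100 and 4705 against 7015, 5682 and 6468. Every exposed pool was above every control pool, with exposed pool 2 the lowest of the exposed, and the log2 fold change was 0.61 ± 0.11 (adjusted p = 0.00384). Cdc6 and Cdt1, the factors that bring the helicase to ORC, rose by 0.51 and 0.39, and Orc2 by 0.31. The remaining subunits Orc4, Orc3 and Orc1 had log2 fold changes of 0.17, 0.14 and -0.01 and passed no test. Within the complex, 3 of 6 ORC subunits rose and 0 fell at the brightest probe set, but the rise of Orc2 turned with the choice of probe set: its other 2 probe sets fell, and at the mean of all 3 it fell too, with a log2 fold change of -1.17 (adjusted p = 0.000472).

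The helicase genes moved less and not together. Of 12, 3 rose and 1 fell, beside 17.6% and 19.9% of all genes. Their median of 0.14 became -0.01 under cyclic loess normalization. After either quantile or loess normalization 2 rose and 3 fell. In the GINS complex, the 4-part factor that with Cdc45 turns the loaded ring into a moving helicase, 2 of 4 subunits rose. Gins1 had signals of 1991, 2038 and 2210 in control pools and 2668, 2788 and 2885 in exposed pools, without overlap (log2 fold change 0.42 ± 0.084, adjusted p = 0.00543). Gins2 went from 1345, 1301 and 1660 to 2100, 1951 and 2261 (0.56 ± 0.12, adjusted p = 0.0065). This probe set of Gins2 may bind several transcripts, and a second one gave 0.01 ± 0.13. Gins3 and Gins4 stood at 0.17 and 0.13 and passed no test, though a second Gins3 probe set fell by 1.71 (adjusted p = 0.00261). A second, dimmer Gins1 probe set rose by 1.02.

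Among the subunits of the ring, 1 of 6 rose and 1 fell. Mcm7 read 12743, 12311 and 13428 in controls and 16838, 14453 and 17551 in exposed pools, a log2 fold change of 0.34 ± 0.092 (adjusted p = 0.0195). The groups did not overlap, but the brightest Mcm7 probe set was 1 of 4, of which 2 rose and 2, at -0.14 and 0.04, passed no test, and under loess normalization its value was -0.03. Mcm2, the subunit whose tail chaperones histones at the fork, had signals of 5092, 4843 and 5095 against 3147, 3944 and 3141. Exposed pool 2 was nearest to the controls, and the log2 fold change was -0.56 ± 0.10 (adjusted p = 0.00388). A second Mcm2 probe set stood at 0.11 ± 0.088 and passed no test. Mcm3, Mcm4, Mcm5 and Mcm6 had log2 fold changes of -0.01, 0.14, 0.17 and 0.01 at their brightest probe sets, and Mcm10 and Cdc45, factors of helicase activation, had 0.11 and -0.07. None of these 6 passed the test at the brightest probe set. Other probe sets of Mcm4, at 0.52 (adjusted p = 0.00592 in limma), and of Mcm6, at 0.47 (adjusted p = 0.0148), rose. Those of Mcm5, at -0.44 (adjusted p = 0.0329), and of Mcm3, at -0.55 (adjusted p = 0.0126) and -4.41, fell.

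The polymerases moved in both directions and were the only group with a median below 0 in the signals as deposited. Of 12 genes 3 rose and 2 fell, close to the 17.6% and 19.9% of all genes. After median centring 3 rose and 0 fell, beside 29.1% and 8.73% of all genes. Their median was -0.06, and 0.24, 0.08 and 0.03 under median centring, quantile and loess normalization. Both primase subunits, which make the RNA primer for each new strand, rose. Prim2, the large subunit, had the largest rise of the 48 genes, from 1175, 1172 and 1506 in controls to 2695, 2077 and 2816 in exposed pools. The groups did not overlap, and the log2 fold change was 0.98 ± 0.15 (adjusted p = 0.00174). A second Prim2 probe set also rose, by 0.27. The difference between the 2 was itself past the threshold (-0.70 ± 0.20 on the log2 scale, adjusted p = 0.0499). Prim1, the catalytic subunit, read 4148, 4087 and 4846 against 5451, 5206 and 5431 (0.30 ± 0.089, adjusted p = 0.0277), without overlap. The polymerase alpha subunits that bind primase, Pola1 and Pola2, stood at -0.28 and -0.39 and passed no test.

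Pold1, the catalytic subunit of polymerase delta, had the largest decrease of the 48 genes. Its signals were 1408, 1526 and 1657 in control pools and 1038, 754 and 918 in exposed pools. No exposed pool reached the controls, and here exposed pool 2 was the lowest (log2 fold change -0.77 ± 0.13, adjusted p = 0.00292). A second Pold1 probe set fell by 1.48, from 1669, 1506 and 1354 to 493, 757 and 417. The accessory subunits Pold2, Pold3 and Pold4 stood at 0.09, -0.03 and -0.18 and passed no test at the brightest probe set. The other 2 of 3 Pold3 probe sets fell, with log2 fold changes of -1.10 (adjusted p = 0.00346) and -0.72 (adjusted p = 0.011). In polymerase epsilon the catalytic subunit and its partner moved apart. Pole, the catalytic subunit, had signals of 1930, 1736 and 1732 against 1371, 1453 and 1291 (-0.39 ± 0.093, adjusted p = 0.0115). The exposed pools all lay below the controls. Pole2, the B subunit, went from 1584, 1573 and 1617 to 2057, 2214 and 1933 (0.38 ± 0.087, adjusted p = 0.0103). The control pools were close to each other, with a standard deviation of 23.1, and all lay below the exposed pools. Pole3 and Pole4, the histone-fold pair, stood at -0.09 and 0.04, and a second Pole3 probe set fell by 0.32 (adjusted p = 0.0407).

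In the group of the clamp, its loader and strand joining, 4 of 11 genes rose and 1 fell, with a median of 0.21. Over all genes 17.6% rose and 19.9% fell. The median was 0.05 after quantile normalization, below the 0.14 of all genes, and 0.082 after loess normalization, beside 0.081 for all genes. Rpa3, the smallest subunit of RPA, rose most, from 2503, 2190 and 2778 in controls to 4848, 3965 and 4157 in exposed pools (0.80 ± 0.12, adjusted p = 0.00149). Rpa2, the middle subunit and the one phosphorylated when forks stall, had signals of 2180, 2152 and 2552 against 2801, 3105 and 3483 (0.45 ± 0.11, adjusted p = 0.0135). Neither gene overlapped between groups. Rpa1, the large DNA-binding subunit, stood at 0.19 without overlap but passed no test (adjusted p = 0.0754). Pcna, the ring that tethers polymerases to DNA, was bright in every pool, at 16455, 15314 and 16929 in controls and 20847, 19189 and 20038 in exposed pools. Its log2 fold change was 0.30 ± 0.076 (adjusted p = 0.0145), and -0.11 under loess normalization. Of the 5 subunits of replication factor C, the loader that opens PCNA, 0 were called in limma at the brightest probe set and 3 had an unadjusted p under 0.05, namely Rfc1, Rfc4 and Rfc2 with log2 fold changes of 0.25, 0.21 and 0.21. Rfc3 and Rfc5 stood at -0.0021 and 0.0066. Their other probe sets went both ways. A second Rfc4 probe set rose by 1.11, from 1790, 1698 and 2089 to 4353, 3201 and 4622, and those of Rfc2 rose by 0.96 and 0.84, whereas those of Rfc1, at -0.56 and -2.76, and that of Rfc3, at -0.90, fell.

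Okazaki fragments, the short pieces of the lagging strand, are trimmed by Fen1 and sealed by Lig1, and these 2 enzymes moved apart at their brightest probe sets. Fen1 rose by 0.56 ± 0.15 (adjusted p = 0.0194), from 2728, 2670 and 3588 to 4503, 3654 and 5040. Control pool 3 and exposed pool 2 nearly met, and a second Fen1 probe set stood at -0.29 ± 0.12 and passed no test. Lig1, DNA ligase I, had signals of 4231, 4427 and 4636 against 3666, 3640 and 3542. The exposed pools were close to each other and below the controls (log2 fold change -0.29 ± 0.076, adjusted p = 0.0166), but after median centring, which moved all genes up by 0.30, the value was 0.01.

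Nucleotide supply gave 1 rise and 0 falls among 4 genes, beside 17.6% and 19.9% of all genes. Its median of 0.06 was below 0 under quantile and loess normalization. Rrm2, the radical-bearing subunit of ribonucleotide reductase, read 11942, 10761 and 11775 in controls and 13856, 12754 and 15450 in exposed pools (0.28 ± 0.092, adjusted p = 0.0399). The groups did not overlap, and this call had the highest adjusted p of the 21. Tyms, the thymidylate synthase, was dim, at 442, 349 and 280 against 246, 409 and 326, and the groups overlapped (-0.13 ± 0.23, adjusted p = 0.686). Thymidine kinase Tk1 stood at -0.12, and Rrm1, the large subunit of ribonucleotide reductase, at 0.23.

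Several probe sets read most of these genes, and they did not always give the same answer. Of the 96 tested probe sets, 27 rose and 20 fell, against 14.4% and 21.8% of all tested probe sets. Among the replication probe sets the shares were 28.1% and 20.8%. Counted by gene, 22 of the 48 had at least 1 risen probe set (45.8%, against 20.9% of all genes) and 15 at least 1 fallen probe set (31.2%, against 32.3%, close to the background). In 3 genes, Orc2, Rpa2 and Rrm2, 1 probe set rose and another fell, out of 32 genes with several tested probe sets. The share over all such genes was 8.58%, so that this count was close to the background. When the 2 brightest probe sets of a gene were compared within each pool, their ratio differed between the groups for 9 of the 32 genes. Of all genes with several tested probe sets 21.4% did so, and whether the replication genes differ from that share was not tested. In 7 of the 9 (77.8%) the dimmer probe set was lower relative to the brighter one in exposed pools, the share also found over all 1391 unequal pairs (77.9%), and in 2, Mcm2 and Rfc4, it was higher. A ratio within a pool shows unequal change and not which of the probe sets follows the gene.

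**Figure D3:**
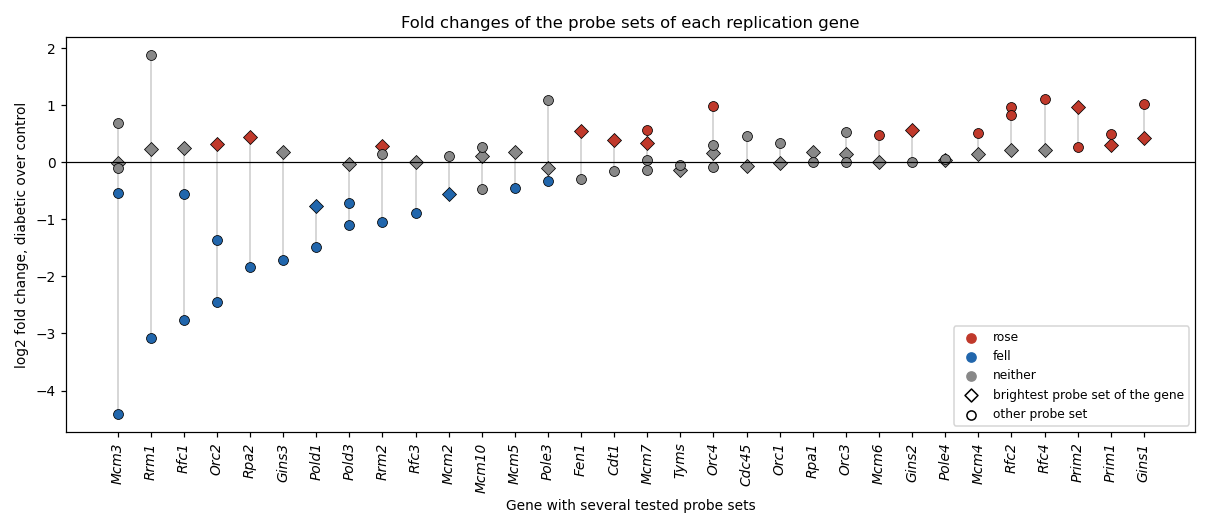
Log2 fold change, diabetes-exposed over control, of every tested probe set of the 32 replication genes with several (vertical axis), ordered by gene; diamonds are the brightest probe set of a gene and circles the others, with the colours of the calls. Brightest probe sets lay between -0.77 and 0.98, while other probe sets of the same genes reached -4.41.

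Values are given for Orc2, Rpa2 and Rrm2, with probe sets called in both directions, and for Rrm1 and Mcm3, which like the second probe sets of other genes above were picked once their values were known. Rrm1 was 1 of the 9 with unequal change, whereas the 2 brightest probe sets of Mcm3 differed by -0.09 (adjusted p = 0.648) and its fall lay in a dimmer one. The brightest Rrm1 probe set had signals of 5252, 5169 and 6386 in controls and 6347, 6471 and 6854 in exposed pools. The second read 5206, 5210 and 4462 in controls and 297, 1734 and 397 in exposed pools. Thus the first stood at 0.23 and passed no test, whereas the second fell by 3.07 on the log2 scale (adjusted p = 0.00331), with exposed pool 2 between the other exposed pools and the controls. For Mcm3, the brightest probe set had signals of 5980, 5977 and 6446 against 5825, 6341 and 6086, while the fourth by signal went from 1866, 1670 and 1150 to 24.3, 318 and 48.5. This was the largest decrease of any probe set of the machinery, -4.41 ± 0.78 (adjusted p = 0.00322), beside a log2 fold change of -0.01 at the brightest. The second Rpa2 probe set read 2042, 1857 and 1643 against 313, 1186 and 373 (-1.83 ± 0.42, adjusted p = 0.0103). The other Orc2 probe sets had log2 fold changes of -1.37 and -2.44, and both fell, where the brightest rose by 0.31. The dimmest Rrm2 probe set fell by 1.04, from 5031, 4751 and 4552 to 1967, 2987 and 2137.

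**Figure D4:**
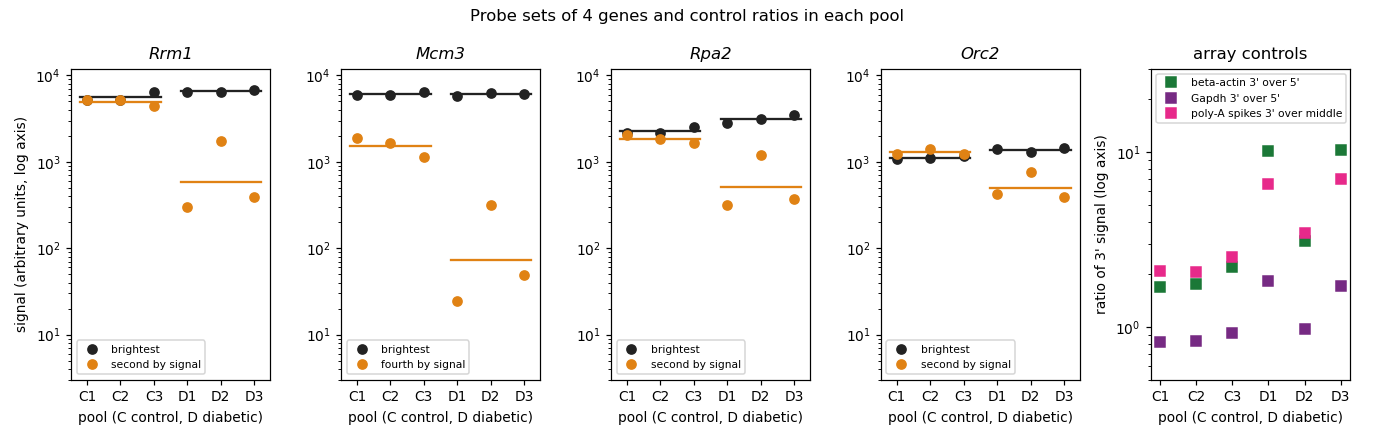
Signal (arbitrary units, log axis) in each pool of 2 probe sets of Rrm1, Mcm3, Rpa2 and Orc2 (bars at the geometric mean of each group), and in the right panel 3 control ratios of the arrays (log axis). The orange probe sets were lowest in exposed pools 1 and 3, the pools in which the poly-A spike ratio was highest at 6.56 and 7.00.

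In all, 10 probe sets of 9 genes fell by 2-fold or more (10.4%, against 11% of all tested probe sets), and 2, of Rfc4 and Gins1, rose by 2-fold or more (2.08%, against 1.24%). In 9 of the 10 that fell, exposed pool 2 was the highest of the exposed pools. The same count was not made over all probe sets that fell, so that whether it sets these 10 apart was not tested. Over all tested probe sets exposed pool 2 was likewise nearest to the control pools, with correlations of 0.93 to 0.95. For exposed pools 1 and 3 they were 0.89 to 0.92. Exposed pool 2 also had the lowest control ratios of the exposed arrays. The comparison of the 2 brightest probe sets depended on single pools: of the 32 genes 0 were called without control pool 1, control pool 2, exposed pool 1 or exposed pool 3, 1 without control pool 3 and 19 without exposed pool 2. At an unadjusted p under 0.05 the counts in limma were 12, 12, 11, 11, 15 and 20 in the same order. The genes named above are read at the brightest probe set over all 6 pools, a rule that favours a probe set that kept its signal, and with a gene's probe sets averaged 15 of the 48 rose (31.2%, against 13.5% of all genes) and 10 fell (20.8%, against 25.2%).

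With the poly-A spike ratio as a covariate, few of the calls held. The ratio did not overlap between groups, so that it shared much of its variation with exposure, and the fit had less to tell the groups apart. Of the 48 genes 0 rose (6 at an unadjusted p under 0.05 in limma) and 1 fell (2.08%). Over all genes 0.0788% rose and 1.73% fell, so that both counts were close to the background. The 1 was Pold1, at -1.27 (adjusted p = 0.0284, and between 0.000138 and 0.0962 over the other settings). That probe set may bind several transcripts, and the second Pold1 probe set went from -1.48 to -0.48 and was not called (adjusted p = 0.316 in limma). The median of the 48 genes was 0.15 with the covariate and 0.17 without. The directions of Orc6 at 0.53, Pole2 at 0.56, Rpa3 at 0.51, Orc5 at 0.40, Gins1 at 0.37 and Prim2 at 0.35 remained upward without passing the test, and Lig1 stood at -0.30. Of the other genes that rose, Cdt1 went from 0.39 to -0.08, Fen1 from 0.56 to -0.07 and Mcm7 from 0.34 to -0.01, while Rrm2 stood at 0.01. The second probe sets changed more: that of Rrm1 went from -3.07 to -0.17, the fourth of Mcm3 from -4.41 to -0.36, and the second of Rpa2 from -1.83 to 0.43. The dimmest Orc2 probe set stayed at -2.30, from -2.44, without passing the test.

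**Figure D5:**
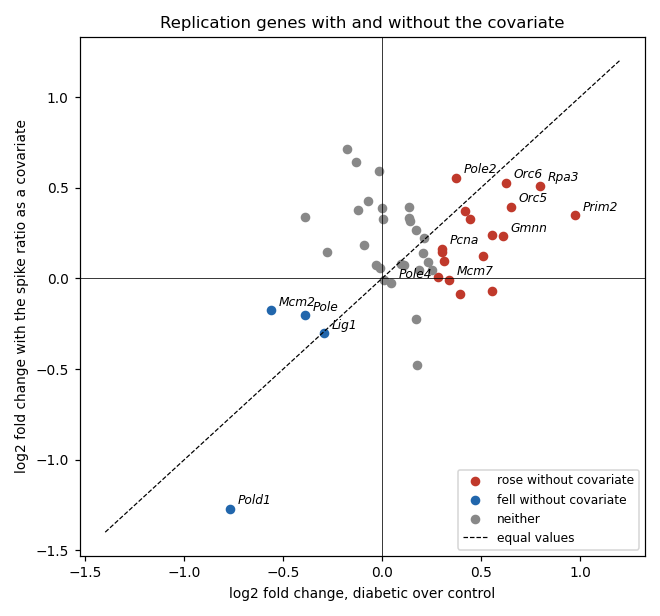
Log2 fold change of the 48 replication genes in the fit without (horizontal axis) and with (vertical axis) the poly-A spike ratio as a covariate; the dashed line marks equal values and colours give the calls without the covariate. Most red points lay below the line, and Pold1 at -1.27 lay farthest below 0.

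Promoters were searched for E2F sites because many of these genes are known E2F targets. The letters searched were TTTCGCGC, TTTGGCGC, TTTCCCGC and TTTGCCGC on either strand, in RefSeq promoters of assembly GRCm38.p6 that run from 250 bases before to 50 bases after each start. Of the 40 member genes with an entry, 16 (40%) held at least 1 of these octamers, against 704 of 27025 genes (2.6%) and 2.26% of all promoters. The octamers were not particular to the members: in the other replication lists described below, 12 of 54 genes with an entry (22.2%) held one. Of the mitosis genes 1 of 18 (5.56%) did. The count was 5 of 8 for the helicase, 4 of 8 for licensing, 5 of 10 for the polymerases, 2 of 10 for the clamp, loader and strand joining, and 0 of 4 for nucleotide supply. By call, 4 of 13 genes that rose, 2 of 3 that fell and 10 of 24 that passed neither test held one. A match is a description of the letters and no measured site. No entry was found for Gins1, Gins2, Gins4, Gmnn, Mcm4, Pole, Prim2 and Rfc2. Some of the matches are shown with their flanks, 5' to 3' on the strand of the gene and with the octamers in capitals, for helicase genes with several and for genes that rose, fell or did neither.
Mcm6 (chr1:128359795-128359824, minus strand, 2 overlapping matches that begin 110 bases before the start): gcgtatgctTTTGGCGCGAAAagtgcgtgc
Mcm6 (chr1:128359734-128359763, minus strand, 47 bases before the start): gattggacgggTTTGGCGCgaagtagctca
Mcm7 (chr5:138172030-138172059, minus strand, 165 bases before a start): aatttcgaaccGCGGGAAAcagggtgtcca
Mcm7 (chr5:138171849-138171878, minus strand, from base 17 of the transcript): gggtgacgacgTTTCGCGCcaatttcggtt
Mcm3 (chr1:20820275-20820304, minus strand, from base 20 of the transcript): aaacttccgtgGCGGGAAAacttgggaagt
Cdc6 (chr11:98908002-98908031, plus strand, 138 bases before a start): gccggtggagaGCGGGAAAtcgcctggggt
Pole2 (chr12:69228162-69228191, minus strand, from base 11 of the transcript): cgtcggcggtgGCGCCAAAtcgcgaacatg
Pold1 (chr7:44548766-44548795, minus strand, from base 40 of the transcript): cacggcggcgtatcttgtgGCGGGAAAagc
Pole4 (chr6:82652890-82652919, minus strand, 34 bases before a start): ctctacccggcGCGGGAAAggggccgaaat
The same letters, GCGGGAAA, thus stood at Cdc6, which rose, at Pold1, which fell, and at Pole4, which did neither.

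Genes that act beside the machinery were read from other lists. Of 65 tested genes in 4 lists, 15 rose and 11 fell, with a median of 0.09, and of 19 mitosis genes 6 rose and 3 fell, with a median of 0.14. Over all genes 17.6% rose and 19.9% fell, and whether these lists or their parts differ from those shares was not tested. Among factors of firing and the fork, 6 of 25 rose and 3 fell: Rnaseh2c and Rnaseh2b, subunits of the enzyme that removes ribonucleotides from DNA, rose by 0.78 and 0.61, whereas Ticrr, which helps Cdc45 join origins, fell by 0.90. Chtf18, part of an alternative clamp loader, fell from 476.5, 474.8 and 473.7 to 199.7, 186.8 and 83.9. In nucleotide supply, Dtymk, which makes dTDP, and Dctpp1, which hydrolyses dCTP, rose by 0.79 and 0.71, while mitochondrial thymidine kinase Tk2 fell by 0.78. Nme1, a nucleoside diphosphate kinase, fell by 1.09 at a probe set with 10330, 11019 and 11051 in controls and 3639, 10630 and 3338 in exposed pools, so that exposed pool 2 stood with the controls. Of 7 chromatin assembly genes 3 rose and 0 fell, among them Supt16, a histone chaperone subunit, by 0.72, and Asf1a, another histone chaperone, by 0.47. Among 21 regulators of the E2F and Rb pathway 1 rose, Ccne2 (cyclin E2) by 0.53, and 6 fell, including E2f2 by 1.12 and the cyclin-dependent kinase inhibitor Cdkn1c by 0.85. In mitosis, Cdca8 and Birc5 of the chromosomal passenger complex rose by 0.69 and 0.52, while Aurkb, the kinase of the same complex, fell by 0.42 and Kif23 by 0.59. When the spike ratio entered the fit, 0 genes of the 4 lists and of mitosis were called in limma (10 and 3 at an unadjusted p under 0.05). The direction of Nme1 then turned to 0.87 and that of Kif23 to 0.15, and that of the other named genes did not turn.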

How the data were processed

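The deposited values were linear signal intensities per probe set. The authors computed them in GCOS with MAS5 (versions not given in the sources used here) and brought each array to a common mean. Their trimmed means lay between 499.817 and 499.863, and their medians between 74.1 and 103.3. All signals were above 0, and present or absent calls were left aside. Log2 was taken without further scaling. The 64 control probe sets and the dimmest 33.3% of the others were left out, and 30025 were tested with limma 3.58.1 in R 4.3.3 (lmFit, eBayes with a trend), with Benjamini-Hochberg adjustment over all of them. The platform's table gave 1 symbol to 34958 probe sets, several to 932 and none to 9211. Each gene was read at its tested probe set of highest mean signal over the 6 pools among those with only its symbol. A further 2 probe sets, of Tyms and Orc4, carried several symbols and were left out. All 107 gene numbers were found in the RefSeq list of GRCm38.p6, with 0 symbols changed.

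The ratio of the 2 brightest probe sets of a gene was tested in the same way over 6515 genes. Precision is limited by having 6 arrays. Members, lists and tests were chosen with earlier results of these data known. Pool values are given for Pole4, for at most 3 rises and 3 falls per group, taken by adjusted p, for the extremes of a group with fewer than 2 calls, and for genes with probe sets called in both directions. Of the other lists, up to 2 genes that rose and 2 that fell are named. Spike ratios were averaged as log2 over 8 probe set pairs. Alternatives were other scalings, a pseudocount of 32, other filters (none or 50%), eBayes without trend, other probe set rules, the spike ratio as a covariate, a replicate block, the methods' t-test and leaving out pools. In simulated pools for the exposed and control comparison (30025 probe sets), 38 of 100 probe sets changed 2-fold and 64 of 100 changed 4-fold were recovered, with 4 false calls among 106. No other probe sets were changed there, whereas 10868 were called in the data. The adjustment was therefore stricter in the simulation, and its recovery does not describe the real comparison. Promoters were searched with Python 3.11.15 and figures drawn with matplotlib 3.10.9.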

Additional observations from a re-analysis of the deposited data

How the results depend on the processing

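With 3 arrays per group, dim probe sets such as that of Tyms were measured too loosely to fix a direction. The calls of the replication genes depended on the model, and their median lay above 0 but not always above that of all genes. Of 30025 probe sets 10868 differed between the groups; relative to Pole4 the number was 6616, with the spike ratio as a covariate 363, by the methods' t-test (Welch's test on log2 signals) 414, and without exposed replicates 1 and 3, a setting chosen after the data were seen, 5180. With 1 pool left out at a time it ran from 7001 (without control replicate 1) to 12372 (without exposed replicate 2), and was 7027 without control replicate 2. Of the replication genes, 17 rose: 5 relative to Pole4, 9 by eBayes without trend, 11 when probe sets that may bind several transcripts were left out, 0 with the covariate, 0 by the methods' t-test (16 at an unadjusted p under 0.05), 5 without exposed replicates 1 and 3, and 9 to 20 when each pool was left out (9 without control replicate 1 or 2, 10 without exposed replicate 1 or 3). The 4 falls became 0 after median centring, 2 relative to Pole4, 10 with a gene's probe sets averaged, 1 with the covariate, 0 by the methods' t-test (4 at an unadjusted p under 0.05), 2 without exposed replicates 1 and 3, and 3 to 6 when each pool was left out. The median log2 fold change of 0.17 was 0.47 after median centring, 0.10 after quantile and 0.078 after loess normalization, 0.11 at the mean of all probe sets and 0.069 without those that may bind several transcripts, and 0.14 to 0.21 when each pool was left out; centring, quantile and loess normalization moved the median of all genes by 0.30, 0.14 and 0.081, so that after the last 2 the replication genes lay at or below all genes. The cause of these differences was not tested.

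Single genes turned as follows. Pole4, at 0.04, stood at -0.026 with the covariate and between -0.13 (without control replicate 2) and 0.14 when each pool was left out. With the covariate Mcm7 was -0.0071, Cdt1 -0.084, Fen1 -0.070 and Tyms 0.64. After loess normalization Mcm7 was -0.028, Pcna -0.11, Rrm2 -0.060 and Tyms 0.088. Quantile normalization gave -0.033 for Rrm2 and 0.15 for Tyms, and median centring 0.0056 for Lig1 and 0.16 for Tyms. At the mean of all probe sets Rpa2 was -0.69, Rrm2 -0.20 and Orc2 -1.17. With 1 pool left out at a time Tyms ran from -0.31 (without exposed replicate 2) to 0.056 (without exposed replicate 1), with 0.033 without control replicate 1, and it was 0.22 without exposed replicates 1 and 3. The 9 genes whose brightest probe sets changed unequally, a test added after the data were seen, became 0 with the covariate (1 at an unadjusted p under 0.05 in limma), 0 without exposed replicates 1 and 3 (7 at an unadjusted p under 0.05) and 0 to 19 when each pool was left out. The difference of the spike ratios was 1.28 on the log2 scale, and 1.10 to 1.61 when each pool was left out. No count of probe sets arises from the mean over probe sets, and no Pole4 value from scaling to Pole4.

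The replicate numbers were shared by both groups but did not pair the pools: deviations of same-numbered pools correlated at 4.94e-05, 0.0761 and 0.118, and control pools 2 and 3, but not control pool 1, correlated best with the exposed pool of their own number. With the replicate number as a block, 11017 probe sets differed, 17 replication genes rose, 5 fell, their median was 0.17 and 8 pairs of probe sets changed unequally.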
